A study of Mus musculus with 38 samples.

Results

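A group of 6 oncofetal genes was followed through retinoic acid (RA) differentiation of mouse embryonic stem cells (mESCs): Hmga1, Hmga2, Lin28b, Igf2bp1, Igf2bp2 and Igf2bp3. They were chosen by name, and all 6 were found among the 23481 genes listed in the bulk table. All cells came from the E14 line. mESCs were grown in 2i/LIF, and differentiation was driven by 0.25 µM RA in N2B27 medium. Bulk RNA-seq held 25 libraries, of which 11 formed a time course of mESCs (2 libraries) and of cells after 6, 12, 24, 36, 48, 60, 72, 84 and 96 h of RA (1 library each). At 48 h of RA, cells negative for the surface receptor PDGFRA had been sorted by CD24 signal into quartiles (Q1 lowest, Q4 highest), and at 72 h into terciles (T1 to T3) next to a PDGFRA+/CD24- gate, with 1 library for each gate. At 96 h of RA, ectoderm-like cells (CD24+/PDGFRA-) and XEN-like cells (PDGFRA+/CD24-, named for extraembryonic endoderm) had been sorted, with 2 biological replicates each. The 2 long-term cultures started from such cells in N2B27 with 20 ng/ml EGF and 10 ng/ml FGF2. The ectoderm-like culture had been passaged 5 times on coated dishes and the XEN-like culture had been kept for 3 weeks as floating aggregates, with 1 library each. Single cells had been profiled by SCRB-seq (9 plates from mESCs to 96 h) and by SMART-seq2 (4 time points to 48 h), with 1 culture per time point.

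Oncofetal genes are active in embryonic and many cancer cells and low in most adult tissues. Hmga1 and Hmga2 encode small architectural proteins that bind AT-rich DNA and bend it. Lin28b, like its relative Lin28a, encodes an RNA-binding protein that blocks the maturation of let-7 microRNAs, and the messages of the Hmga, Lin28 and Igf2bp families are textbook targets of let-7. The Igf2bp genes encode proteins that bind messenger RNAs such as Igf2, Actb and Myc and affect their stability, transport and translation.

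The sequences that tie the group together are the let-7 seed and its matches in the 3′ untranslated regions. The mature let-7 sequences (RefSeq, GRCm38) fell into 10 names from 12 loci with the seed GAGGUAG and 1 name, let-7j, with the seed GAGGUAU. Here 4 are shown to let the seed be compared, with bases 2 to 8 in capitals.
let-7a: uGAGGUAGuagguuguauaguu
let-7g: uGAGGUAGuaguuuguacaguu
miR-98: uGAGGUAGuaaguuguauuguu
let-7j: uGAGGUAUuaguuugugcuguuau

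A match to this seed reads CTACCTCA (8mer), CTACCTC (7mer-m8) or TACCTCA (7mer-A1) on the strand of the transcript, and only that strand was searched. An 8mer was counted once and not again as a 7mer. In the longest annotated 3′ untranslated region of each gene (GENCODE M21 annotation of GRCm38), Hmga2 held 7 matches, Lin28b 5, Igf2bp1 5, Igf2bp2 2, and Hmga1 and Igf2bp3 1 each. Of 21025 genes with such a region, 14.9% held a match and 3.06% held an 8mer, whereas all 6 genes held a match and 5 of 6 an 8mer. The 6 belong to families already known as let-7 targets, so these shares and those below describe the group and test nothing. Long regions hold more matches by length alone, so each gene was set beside genes whose region was within 10% of its own length. Among these, 25.4% held any match for Hmga2, 39.5% for Lin28b, 54.9% for Igf2bp1, 18.9% for Igf2bp2, 24.0% for Igf2bp3 and 13% for Hmga1. As many matches as in the gene itself were held by 0.18% of them for Hmga2, 0.659% for Lin28b, 0.82% for Igf2bp1 and 2.31% for Igf2bp2. A single match per gene is printed, the 8mer nearest the stop codon or, in Hmga1, its single 7mer-m8, with the match in capitals.
Hmga1 (chr17:27563292-27563298, plus strand): ctgttcacaaaCTACCTCtggacggttgt
Hmga2 (chr10:120364224-120364231, minus strand): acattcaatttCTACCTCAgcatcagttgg
Lin28b (chr10:45381022-45381029, minus strand): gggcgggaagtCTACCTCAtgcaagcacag
Igf2bp1 (chr11:95961778-95961785, minus strand): tgcgaagtaaaCTACCTCAaggtgtgaagt
Igf2bp2 (chr16:22059473-22059480, minus strand): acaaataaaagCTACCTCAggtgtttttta
Igf2bp3 (chr6:49086787-49086794, minus strand): tttttactcaaCTACCTCAggtattcagta

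The 8mers of Lin28b and Hmga2 lay 36 and 58 bases after the stop codon, while the 3 8mers of Igf2bp1 began 1715, 4136 and 4730 bases after it. In Igf2bp1 and Igf2bp2 a 7mer-A1 followed the printed 8mer closely, at 1734 and 1330 bases after the stop codon. A match is a description of the sequence and not evidence of binding. Mature let-7 was not measured by these libraries, which capture polyadenylated RNA: the row named for the let-7b locus, Mirlet7b, held 0 to 8 UMIs per library.

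**Figure D1:**
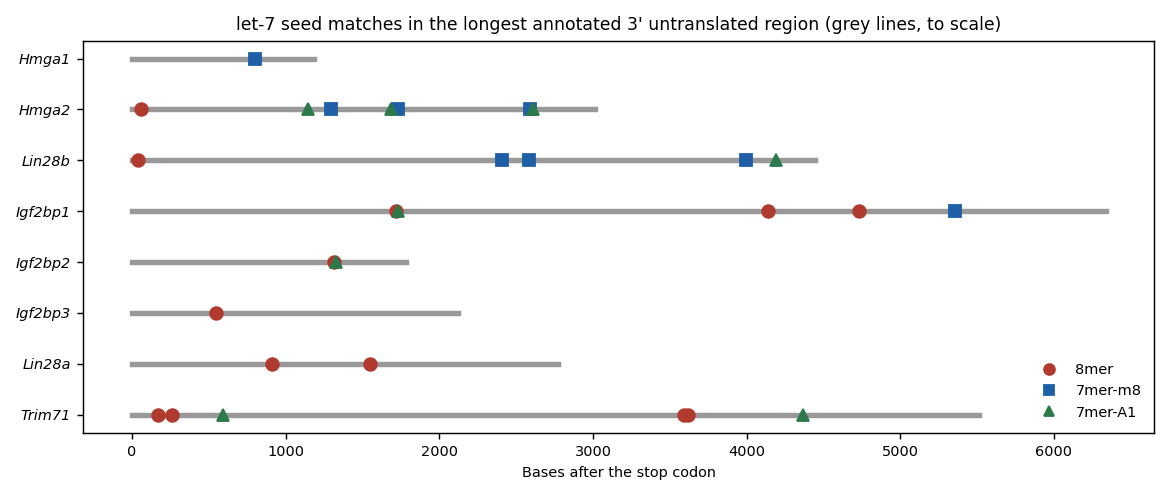
Matches to the let-7 seed in the longest annotated 3′ untranslated region of the 6 genes and of Lin28a and Trim71. The x axis gives bases after the stop codon, grey lines span each region to scale, and the marker shape gives the kind of match. Hmga2 held 7 matches over 3014 bases and Trim71 6 over 5512 bases.

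Hmga1 and Hmga2 lie at chr17:27556497-27563674 (plus strand) and chr10:120361275-120476469 (minus strand). Lin28b lies at chr10:45376620-45486395 (minus strand). Igf2bp1, Igf2bp2 and Igf2bp3 lie on the minus strand at chr11:95957163-96005940, chr16:22059009-22163299 and chr6:49085223-49214957. Short reads of Hmga1 can also align to near-identical sequence outside the gene, so its absolute level is uncertain. The 3′ ends of Hmga1 and Igf2bp3 also overlap genes on the opposite strand, AI413582 and Malsu1. Reads had been aligned to RefSeq messages, and whether strand was used is not given in the sources used here, so reads of such partners cannot be told apart.

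The 25 bulk libraries held 1063830 to 2459483 UMIs (unique molecular identifiers, 1 per captured transcript; median 1665383). Levels are given in CPM, UMIs per 1000000 UMIs of a library, and their 95% intervals are exact Poisson intervals that cover counting error only. The sorted libraries carried the markers of their labels: the sum over 11 XEN markers was 6664 and 12049 CPM in the XEN-like libraries against 485 and 1779 CPM in the ectoderm-like ones, and the sum over 11 ectoderm markers was 323 and 611 against 2803 and 3270 CPM. Among the ectoderm markers, Pax6 was at 0 in both XEN-like libraries and Sox1 in replicate 2, and no XEN marker was at 0 in the ectoderm-like libraries. Ectoderm-like replicate 2 carried the higher XEN sum, with Pdgfra at 36.8 CPM against 3.33 CPM in replicate 1. A sum over 12 pluripotency genes was 4524 and 6267 CPM in the XEN-like libraries and 432 and 790 CPM in the ectoderm-like ones, next to 13436 and 18353 CPM in mESCs. Most of this sum came from Dppa5a, here and in the gates below. Dppa5a held 11710 and 4774 UMIs in XEN-like replicates 1 and 2 and 888 and 422 UMIs in the ectoderm-like ones. Zfp42, Pou5f1, Klf4 and Klf2 were also higher in XEN-like cells. Sox2 (3 and 4 against 99 and 78 UMIs) and Nanog (189 and 58 against 368 and 122 UMIs) were lower there. In bulk RNA, fewer cells of a type and less RNA per cell cannot be told apart.

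Hmga1 was present in mESCs and in ectoderm-like cells and nearly absent from XEN-like cells. It stood at 137 and 154 CPM (314 and 353 UMIs) in the 2 mESC libraries, at 198 and 127 CPM in the ectoderm-like libraries and at 8.13 and 2.73 CPM (16 and 3 UMIs) in the XEN-like libraries. Both XEN-like libraries lay far below all 4 others, which overlapped among themselves. In edgeR's quasi-likelihood test over 8947 genes, Hmga1 fell by 4.67 on the log2 scale in XEN-like against ectoderm-like cells (SE 0.42, adjusted p = 0.000262). Against mESCs it fell by 4.84 (SE 0.42, edgeR adjusted p = 3.72e-05). Without XEN-like replicate 1 these differences were -5.60 and -5.76. Between ectoderm-like cells and mESCs the log2 difference was -0.16 (SE 0.31, edgeR adjusted p = 0.768), and its sign depended on the scaling.

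Hmga2 was higher in ectoderm-like than in XEN-like cells, by less than Hmga1. It stood at 78.4 and 129 CPM in the ectoderm-like libraries, at 32 and 10.0 CPM in the XEN-like libraries and at 16.6 and 44.8 CPM in mESCs. The ectoderm-like libraries lay above the other 4, and the mESC and XEN-like libraries overlapped. Hmga2 fell by 2.17 on the log2 scale in XEN-like against ectoderm-like cells (SE 0.55, edgeR adjusted p = 0.0232). This call rested on single libraries, since the adjusted p in edgeR was 0.0606 without ectoderm-like replicate 1, 0.163 without ectoderm-like replicate 2 and 0.137 without XEN-like replicate 2. The log2 difference of ectoderm-like cells to mESCs was 1.44 (SE 0.52, edgeR adjusted p = 0.0756). It passed the threshold with library totals in place of TMM factors (0.0482 by edgeR), with no filter on low counts (0.000841), without mESC replicate 2 (2.35, 0.0111) and without XEN-like replicate 1 (0.0491). The mESC libraries differed in this gene, with 38 and 103 UMIs. The log2 difference of XEN-like cells to mESCs was -0.74 (SE 0.55, edgeR adjusted p = 0.367).

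Lin28b was detected in ectoderm-like cells and hardly in XEN-like cells or mESCs. The ectoderm-like libraries held 51 and 26 UMIs (28.3 and 16.8 CPM), the XEN-like libraries 2 and 1 UMIs (1.02 and 0.911 CPM) and the mESC libraries 0 and 2 UMIs. The ectoderm-like libraries did not overlap with the other 4. Lin28b fell by 4.35 on the log2 scale in XEN-like against ectoderm-like cells (SE 0.73, edgeR adjusted p = 0.00344), and the summed counts of 3 and 77 UMIs gave a CPM ratio of 0.0425 with a counting interval of 0.00858 to 0.129. Without ectoderm-like replicate 1, the library with 51 of the 77 UMIs, the adjusted p in edgeR was 0.0716. Against mESCs, Lin28b rose by 5.19 in ectoderm-like cells (SE 0.76, edgeR adjusted p = 0.00077). This difference was 4.24 without mESC replicate 1 and 8.20 without mESC replicate 2, which held both UMIs. The ratio there rested on 77 and 2 UMIs and was 52.7, with a counting interval of 14.1 to 443. The difference between XEN-like cells and mESCs was 0.84 (SE 1.23, edgeR adjusted p = 0.657) on 3 and 2 UMIs, too few to show a difference at this depth.

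The relative Lin28a, which blocks let-7 maturation by a related route, had a different distribution. It stood at 166 and 155 CPM in ectoderm-like, 181 and 143 CPM in XEN-like and 32.4 and 13.9 CPM in mESC libraries. Lin28a thus rose in both cell types against mESCs, by 2.49 in ectoderm-like (SE 0.35, edgeR adjusted p = 0.000664) and by 2.61 in XEN-like cells (SE 0.36, edgeR adjusted p = 0.000406). Its CPM ratio between XEN-like and ectoderm-like cells was 1.04 (counting interval 0.922 to 1.18).

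The 3 Igf2bp genes did not pass the test in any of the 3 comparisons. Igf2bp1 stood at 144 and 138 CPM in mESCs, 321 and 234 CPM in ectoderm-like and 222 and 178 CPM in XEN-like cells. These libraries were ordered from mESCs to XEN-like to ectoderm-like cells without overlap, with log2 differences of 0.66 for ectoderm-like cells against mESCs (SE 0.25, edgeR adjusted p = 0.0907) and -0.36 between XEN-like and ectoderm-like cells (SE 0.25, edgeR adjusted p = 0.391). Igf2bp1 passed in the first of these with library totals in place of TMM factors (0.98, edgeR adjusted p = 0.0227), a scaling that moved the median log2 difference of all genes to 0.36. For XEN-like cells against mESCs the difference was 0.29 (SE 0.25, edgeR adjusted p = 0.435).

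Igf2bp2 stood at 13.1 and 36.1 CPM in mESCs, 46.7 and 49.7 CPM in ectoderm-like and 48.8 and 25.5 CPM in XEN-like cells. The XEN-like libraries overlapped with both other groups. The log2 difference was 0.64 for ectoderm-like cells against mESCs (SE 0.45, edgeR adjusted p = 0.366), and 1.58 without mESC replicate 2 (edgeR adjusted p = 0.0317). It was -0.27 between XEN-like and ectoderm-like cells (SE 0.45, edgeR adjusted p = 0.764) and 0.37 between XEN-like cells and mESCs (SE 0.46, edgeR adjusted p = 0.596). Igf2bp3 stood at 59.5 and 58.8 CPM in mESCs, 89.5 and 76.9 CPM in ectoderm-like and 49.8 and 55.6 CPM in XEN-like cells. Its libraries were highest in ectoderm-like cells without overlap, with a log2 difference of -0.55 between XEN-like and ectoderm-like cells (SE 0.29, edgeR adjusted p = 0.25). Against mESCs it differed by 0.18 in ectoderm-like (SE 0.28, edgeR adjusted p = 0.715) and by -0.37 in XEN-like cells (SE 0.29, edgeR adjusted p = 0.385).

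In all, 3 of the 6 genes were called between XEN-like and ectoderm-like cells, beside 12.7% of the 8947 genes tested. All 3 were lower in XEN-like cells, the direction of 5.74% of all genes, and none was higher, the direction of 6.99%. The median log2 difference of the 6 was -1.36, and -0.06 over all genes tested. For ectoderm-like cells against mESCs, 1 of 6 was called (19.1% of all genes). It was higher, as were 9.85% of all genes, and none was lower, beside 9.28%. For XEN-like cells against mESCs, 1 of 6 was called (22.8% of all genes). It was lower, as were 10.5% of all genes, and none was higher, beside 12.3%. In 5 of 6 genes the libraries of ectoderm-like and XEN-like cells did not overlap, a pattern that 57.7% of all genes tested showed. The libraries of ectoderm-like cells and mESCs did not overlap in 5 of 6 genes (63.2% of all genes), and those of XEN-like cells and mESCs in 4 of 6 (61.2%). The sums over pluripotency markers given above also differed between these groups, and their part in the differences was not tested.

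**Figure D2:**
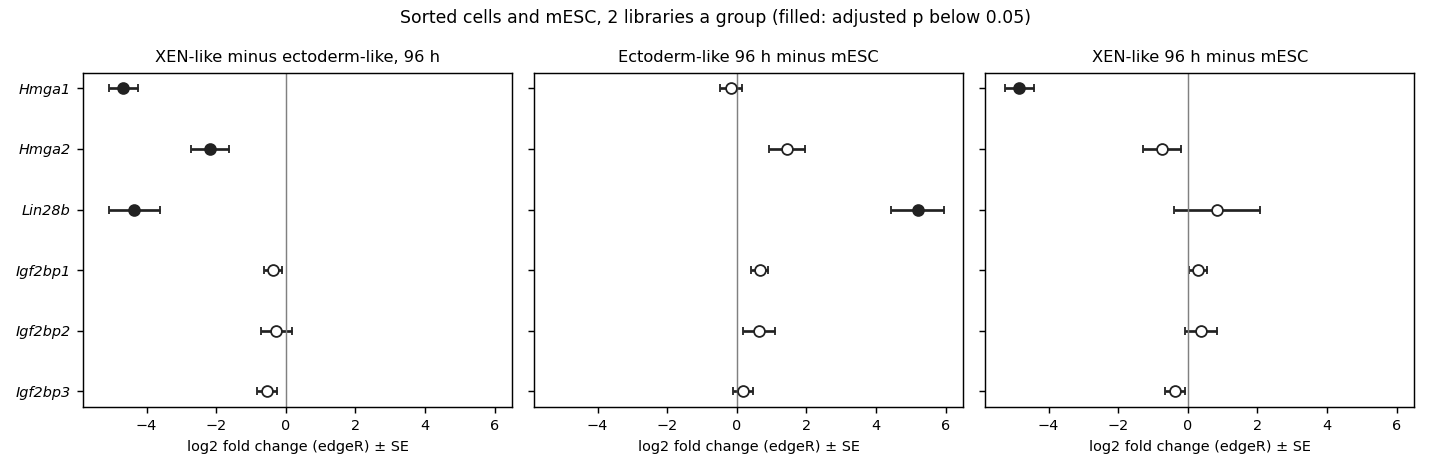
Log2 fold changes from edgeR (x axis) with standard errors (bars) for each gene in the 3 comparisons of sorted cells and mESCs, 2 libraries a group. Filled points have an adjusted p below 0.05: Hmga1, Hmga2 and Lin28b on the left, Lin28b in the middle and Hmga1 on the right.

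The same genes were then followed over time. Hmga1 was at its highest early, with 161 CPM at 6 h and 165 CPM at 12 h, and then at 140, 139, 125, 123, 120 and 107 CPM from 24 to 84 h. At 96 h it stood at 51.2 CPM (interval 41.7 to 62.3), below every earlier time point. The CPM ratio of 96 h to the first mESC library was 0.373 (counting interval 0.295 to 0.469). No time point after mESCs had a replicate library, so these differences have no replicate check.

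Hmga2 took the opposite course. It stood at 17.6, 14.1, 20.4 and 23 CPM from 6 to 36 h, then at 39, 45 and 49.6 CPM from 48 to 72 h and at 61.2 and 59.4 CPM at 84 and 96 h. The ratio of 96 h to the first mESC library was 3.58 (2.46 to 5.30). It depended on the mESC library, since the second one held 44.8 CPM and gave a log2 ratio of 0.41 in place of 1.84.

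Lin28b was at 0 to 2 UMIs in mESCs and up to 24 h and at 3 UMIs at 36 h. It then stood at 14 UMIs (5.69 CPM) at 48 h, 10 at 60 h, 26 at 72 h (14.2 CPM), 28 at 84 h (14.5 CPM) and 14 at 96 h (7.17 CPM). Against the 0 UMIs of the first mESC library, Lin28b at 96 h was 5.47-fold higher with 3 counts set in place of 0. The lower end of the counting interval of this ratio, with 0 kept, was 3.89. Lin28a was at 72.9 CPM already at 6 h and reached 143 CPM at 72 h.

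Igf2bp1 stood at 179 CPM at 6 h and between 163 and 232 CPM from then on, with 224 CPM at 96 h. Its ratio of 96 h to mESCs was 1.55 (1.34 to 1.80). Igf2bp2 varied between 12.3 CPM at 12 h and 36.8 CPM at 84 h and stood at 35.9 CPM at 96 h. Its ratio of 2.73 (1.76 to 4.34) became a log2 ratio of -0.0102 with the second mESC library as the reference. Igf2bp3 first went down, from 59.5 CPM in the first mESC library and 59.7 CPM at 6 h to 47.6 and 45.3 CPM at 12 and 24 h. From its low point of 33.3 CPM at 36 h (25.1 to 43.3) it stepped to 87 CPM at 48 h (75.7 to 99.5). It then stayed between 78.1 and 86.6 CPM, and its ratio of 96 h to mESCs was 1.46 (1.15 to 1.84). In the 4 PDGFRA- gates at 48 h, each 1 library, Igf2bp3 stood at 34.1 to 50.5 CPM, below the unsorted 48 h library.

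Ratios were counted where the larger library held 50 UMIs or more. Of the 5 such genes of the group, 2 were at least 2-fold higher at 96 h than in the first mESC library (Hmga2 and Igf2bp2), beside 22% of 4601 genes, and 1 was at least 2-fold lower (Hmga1), beside 8.28%. With TMM-scaled totals the median log2 ratio of all genes moved from 0.22 to -0.12 and the split of genes past 2-fold from 1011 higher and 381 lower to 729 and 577.

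**Figure D3:**
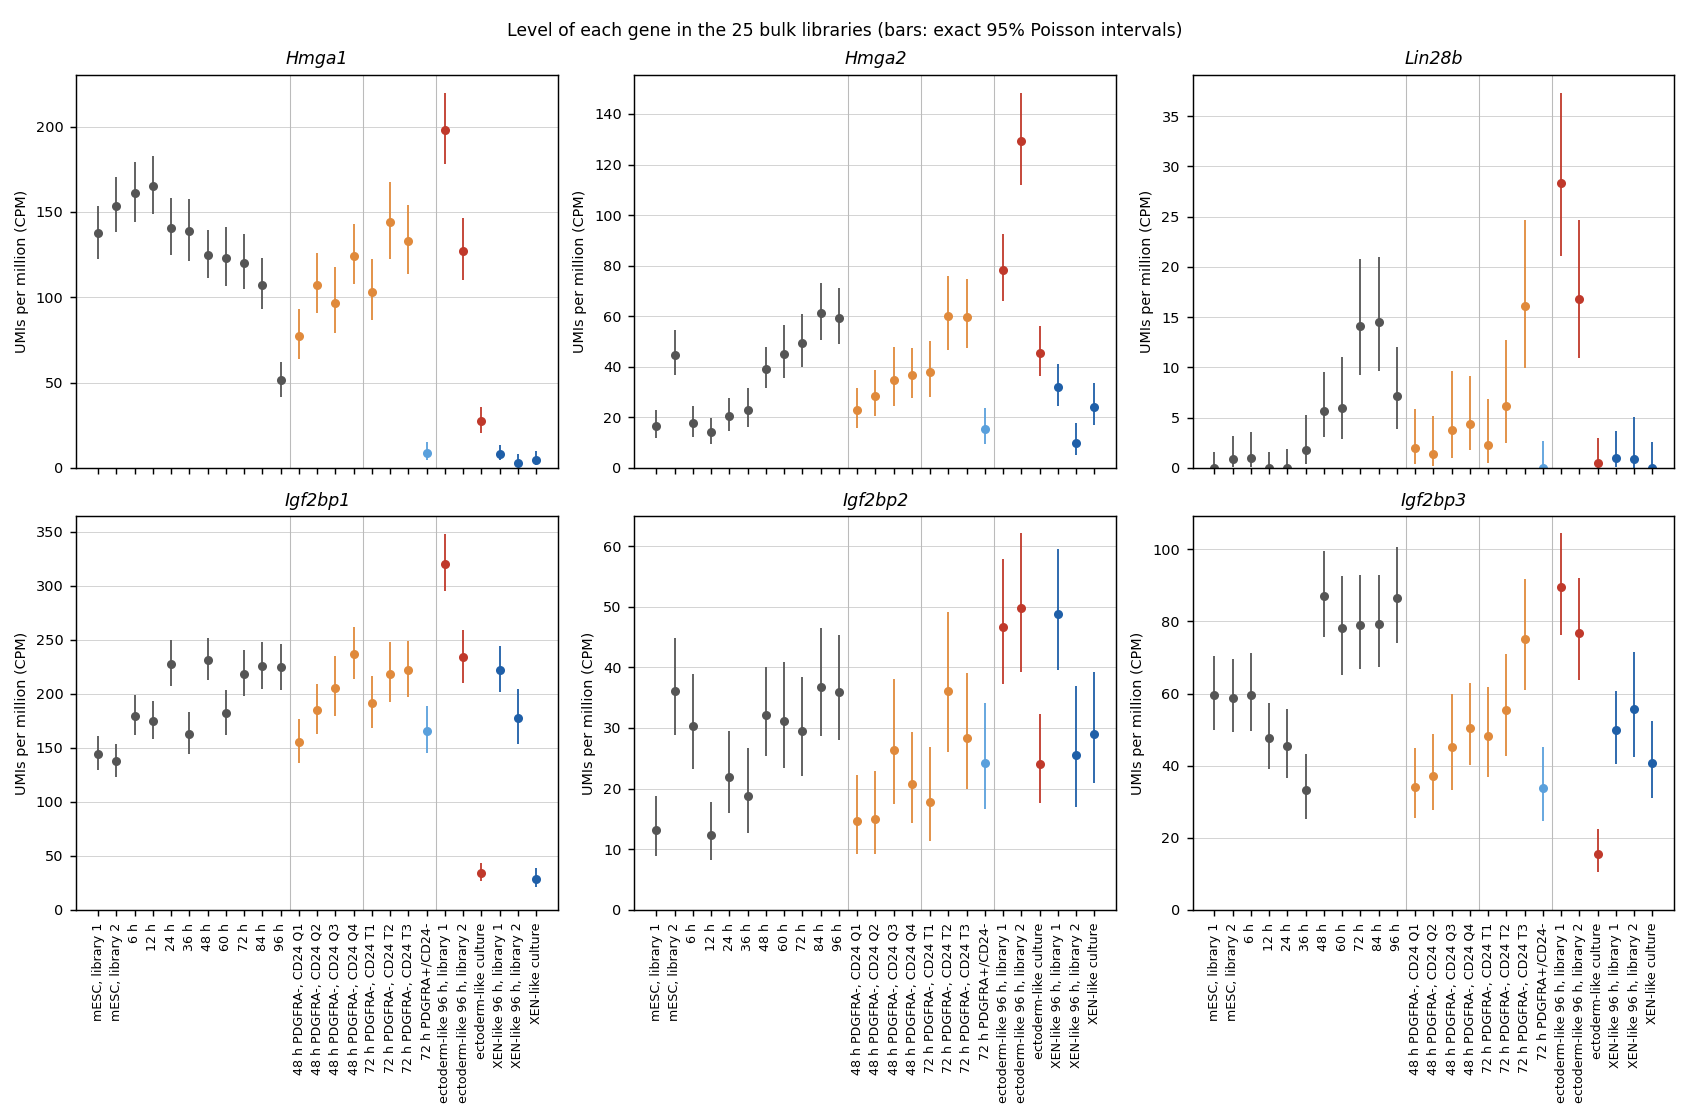
CPM (y axis, linear) of each gene in the 25 bulk libraries (x axis), with exact 95% Poisson intervals. Grey points are unsorted cells, orange the PDGFRA- gates, light blue the 72 h PDGFRA+/CD24- gate, red ectoderm-like and dark blue XEN-like cells and their cultures. Hmga1 stood between 2.73 and 8.82 CPM in the 72 h PDGFRA+ gate and the 3 XEN-like libraries, culture included.

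The gates at 48 and 72 h placed the genes along the CD24 signal before the sort at 96 h. Within PDGFRA- cells at 48 h, Hmga2 stood at 22.7, 28.6, 34.8 and 36.6 CPM from Q1 to Q4. Igf2bp1 stood at 155, 185, 206 and 237 CPM and Igf2bp3 at 34.1, 37.1, 45.1 and 50.5 CPM over the same gates. All 3 followed the order of the gates, as did Cd24a itself with 19.4, 35.7, 60.2 and 127 CPM, and 10.9% of 3096 genes were higher in each of the 4 gates than in the one before. Gapdh also followed it, with 2155, 2291, 2511 and 2675 CPM, as did the sum over ectoderm markers, from 885 to 1560 CPM, while the pluripotency sum went down from 6664 to 4292 CPM. The part of these in the order was not tested. Hmga1 (77.6, 107, 96.8 and 124 CPM), Igf2bp2 (14.7, 15.0, 26.3 and 20.8 CPM) and Lin28b (3, 2, 4 and 7 UMIs) were higher in Q4 than in Q1 but did not follow the order in between.

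The ratios of Q4 to Q1 were of similar size: 1.60 for Hmga1 (counting interval 1.27 to 2.03), 1.61 for Hmga2 (1.04 to 2.54), 1.53 for Igf2bp1 (1.29 to 1.81) and 1.48 for Igf2bp3 (1.03 to 2.15). None of the 4 genes with 50 UMIs reached 2-fold, beside 2.10% of 3096 genes that were 2-fold higher and 3.00% that were 2-fold lower. Gapdh was itself 1.24-fold higher in Q4, and relative to it the log2 ratio of Igf2bp1 went from 0.61 to 0.30. Lin28a was 2.17-fold higher in Q4 (1.77 to 2.65).

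At 72 h Lin28b held 3, 7 and 21 UMIs from T1 to T3 (2.33, 6.18 and 16.1 CPM), a ratio of T3 to T1 of 6.92 with a counting interval of 2.06 to 36.2. Hmga2 stood at 38.1, 60.0 and 59.9 CPM, Hmga1 at 103, 144 and 133 CPM and Igf2bp3 at 48.2, 55.6 and 75.2 CPM. All of these were lowest in T1. None of the 4 genes with 50 UMIs reached 2-fold, beside 2.19% of 3056 genes higher and 7.95% lower. The sum over XEN markers was 797 CPM in T1 and 356 CPM in T3, and that over pluripotency markers 4643 and 1314 CPM. Their part in these differences was not tested.

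The PDGFRA+/CD24- gate at 72 h already showed the low Hmga levels of the XEN-like cells sorted at 96 h. Hmga1 was at 8.82 CPM (12 UMIs), against 126 CPM over the 3 PDGFRA- gates, a ratio of 0.07 (0.0359 to 0.123). Hmga2 was at 15.4 CPM against 52.4 CPM, a ratio of 0.295 (0.178 to 0.463). Lin28b was at 0 of 1360644 UMIs against 31 UMIs in the PDGFRA- gates. With 3 counts set in place of 0 it was 3.78-fold lower. The upper end of the counting interval of the ratio, with 0 kept, was 0.346.

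The Igf2bp genes differed less between these gates. The ratio was 0.79 for Igf2bp1 (0.678 to 0.917), 0.894 for Igf2bp2 (0.584 to 1.34) and 0.565 for Igf2bp3 (0.402 to 0.778). Lin28a was at 190 CPM in PDGFRA+ cells and 158 CPM in PDGFRA- cells. Of the 5 genes with 50 UMIs, 2 were at least 2-fold lower (Hmga1 and Hmga2), beside 15.8% of 5351 genes, and none was 2-fold higher, beside 7.08%. With TMM-scaled totals the split of genes past 2-fold moved from 379 higher and 845 lower to 508 and 671. XEN markers summed to 4380 CPM in the PDGFRA+ gate and pluripotency markers to 7169 CPM, most of it from Dppa5a (9417 UMIs), with Sox2 at 1 UMI.

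In the ectoderm-like culture most of the group was low. Igf2bp1 stood at 34.3 CPM in the culture against 281 CPM over the 2 sorted ectoderm-like libraries, a ratio of 0.122 (0.0933 to 0.157). Hmga1 stood at 27.3 CPM against 165 CPM, a ratio of 0.165 (0.122 to 0.22), and Igf2bp3 at 15.5 CPM against 83.7 CPM, a ratio of 0.186 (0.122 to 0.272). Lin28b was at 1 UMI against 77, a ratio of 0.0233 with a counting interval of 0.000582 to 0.134. Hmga2, at 45.5 CPM against 102 CPM (0.447, 0.348 to 0.568), and Igf2bp2, at 24.1 CPM against 48.1 CPM (0.501, 0.352 to 0.701), were the least reduced.

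All 6 genes had 50 UMIs here and 5 were at least 2-fold lower, beside 14.4% of 5719 genes, while none was higher, beside 13.7%. Without ectoderm-like replicate 2, Hmga2 was at a log2 ratio of -0.78 and 4 of 6 were past 2-fold. Gapdh was also lower in the culture, at a ratio of 0.548. Relative to Gapdh, the log2 ratios of Igf2bp1, Hmga1 and Igf2bp3 were -2.17, -1.73 and -1.56, and those of Hmga2 and Igf2bp2 -0.29 and -0.13. Lin28a was at 3 UMIs against 538, a ratio of 0.00999 (0.00205 to 0.0294). A list of 7 mesenchyme and neural crest markers summed to 3820 CPM in the culture and to 28.4 and 36.7 CPM in the sorted libraries, with Sox10 at 0 in all 3. Its part in these differences was not tested, and the culture was 1 library.

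In the XEN-like culture, Igf2bp1 was at 29 CPM against 206 CPM in the sorted XEN-like cells, a ratio of 0.14 (0.1 to 0.192). Hmga2 (24.1 against 24.1 CPM), Igf2bp2 (29 against 40.4 CPM) and Igf2bp3 (40.7 against 51.9 CPM) were past 2-fold in neither direction. Hmga1 held 7 UMIs against 19, a ratio of 0.779 (0.277 to 1.94), and Lin28b 0 against 3, too few for a ratio. Of the 4 genes with 50 UMIs, 1 was at least 2-fold lower, beside 21.8% of 5313 genes, and none higher, beside 17.2%. These ratios depended on the sorted library: against replicates 1 and 2 alone the log2 ratios were -0.41 and 1.27 for Hmga2, -0.75 and 0.82 for Hmga1 and -0.75 and 0.18 for Igf2bp2. Lin28a was at 7 UMIs against 514, a ratio of 0.0288 (0.0115 to 0.0598). The culture carried a sum of 119164 CPM over 6 gut epithelium markers, against 48.3 and 87.9 CPM in the sorted libraries. Most of this sum came from Tff1 (82016 UMIs) and Gkn1 (78390 UMIs), with Psca at 7171, Lgals4 at 5158 and Vil1 at 17 UMIs. Cdx2 was not raised, with 1 UMI in the culture and 2 and 1 UMIs in sorted replicates 1 and 2. The part of these markers in the differences was not tested.

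Igf2bp1 and Lin28a were thus low in both cultures, whereas Hmga1 was low in XEN-like cells before and after culture. Ordered by level over the 25 libraries, Igf2bp1 was lowest in the 2 cultures, and its interval in the ectoderm-like culture did not overlap that of the next library, mESC replicate 2. Hmga1 was lowest in the 3 XEN-like libraries and the 72 h PDGFRA+ gate, whose intervals overlapped in order, below the ectoderm-like culture, the 96 h library and 48 h Q1, each separate from the next. Igf2bp3 was lowest in the ectoderm-like culture, below 36 h without overlap. Hmga2 was highest in ectoderm-like replicate 2 (129 CPM), above replicate 1 without overlap of the intervals, and all its other neighbours in order overlapped. For Lin28b and Igf2bp2 every interval overlapped that of its neighbour in order.

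In the SCRB-seq plates, 2448 of 3456 wells held more than 2000 UMIs and were used as cells. Their median was between 3560 and 5069 UMIs per cell at the 9 time points. The plates share their 384 well names, which are plate positions, so a name does not tie cells across plates. Levels were summed over the cells of a plate and given per 10000 UMIs, and each plate is 1 culture.

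Lin28b was close to absent until 24 h, with 2, 1, 14 and 0 UMIs in mESCs and at 6, 12 and 24 h. It then held 49, 35, 31, 31 and 30 UMIs at 36, 48, 60, 72 and 96 h, and 0.413 per 10000 UMIs at 96 h (0.279 to 0.589). With each cell thinned to 2000 UMIs, 0.709% of mESCs held a Lin28b UMI (95% exact binomial interval 0.086% to 2.54%), 0 of 290 cells at 24 h, which allows a share of up to 1.03% by 3 counts of the total (exact upper limit 1.26%), and 8.76% at 96 h (4.61% to 14.8%). Without thinning the shares were 0.709% and 13.1%, at median depths of 3939 and 4028 UMIs. The ratio of 96 h to mESCs was 38.9, on 30 and 2 UMIs (9.87 to 336).

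Igf2bp3 and Hmga2 went through a low point at 24 h. Hmga2 stood at 3.12 per 10000 UMIs in mESCs, 1.64 at 6 h, 1.12 at 12 h and 0.588 at 24 h, then at 0.794, 0.881 and 1.16 to 60 h, and at 2.69 at 72 h and 2.23 at 96 h. Igf2bp3 stood at 1.34, 1.20, 0.809 and 0.366 to 24 h and at 0.63, 1.26, 1.48, 2.29 and 1.62 from 36 to 96 h. The thinned share of cells with an Hmga2 UMI was 35.8% in mESCs (30.2% to 41.7%), 10.0% at 24 h (6.8% to 14%) and 34.5% at 72 h (28.4% to 40.9%). Without thinning it was 57.4%, 15.2% and 51.5%. Igf2bp2 stood at 1.27 in mESCs, 0.467 at 36 h and 0.977 at 96 h, and Igf2bp1 was the steadiest, between 2.47 at 24 h and 3.58 at 96 h.

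The 2 kinds of library disagreed in Hmga1, Hmga2 and Igf2bp2, and in the level of Lin28b at several time points. Lin28b was higher at 96 h than in mESCs in both. At 36 h Lin28b held 3 of 1652522 UMIs in bulk and 49 of 2443202 UMIs in SCRB-seq, so its rise came at 36 h in SCRB-seq and at 48 h in bulk. At 96 h it held 14 of 1951282 UMIs in bulk and 30 of 726759 UMIs in SCRB-seq. For Hmga2 the bulk ratio of 96 h to the first mESC library was 3.58, whereas the SCRB-seq ratio was 0.714 (0.596 to 0.851). In mESCs, Hmga2 had 3.39 per 10000 UMIs in SCRB-seq and 0.308 in bulk over the genes both held, a ratio of 11. For Igf2bp2 the bulk ratio of 2.73 stood beside an SCRB-seq ratio of 0.767 (0.58 to 1.00), and its level in mESCs was 5.61-fold higher in SCRB-seq. For Hmga1, the 2 bulk mESC libraries held 667 UMIs and the 282 SCRB-seq mESCs held 1 UMI, a ratio of 0.00396, which lay at percentile 0.419 among 2387 genes with at least 200 bulk UMIs. Hmga1 had 1 to 4 UMIs on every plate. The plates therefore carried no usable measurement of Hmga1, and its time course stands on the bulk and SMART-seq2 data, which differed between mESCs and 12 h. What set the kinds of library apart was not tested.

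**Figure D4:**
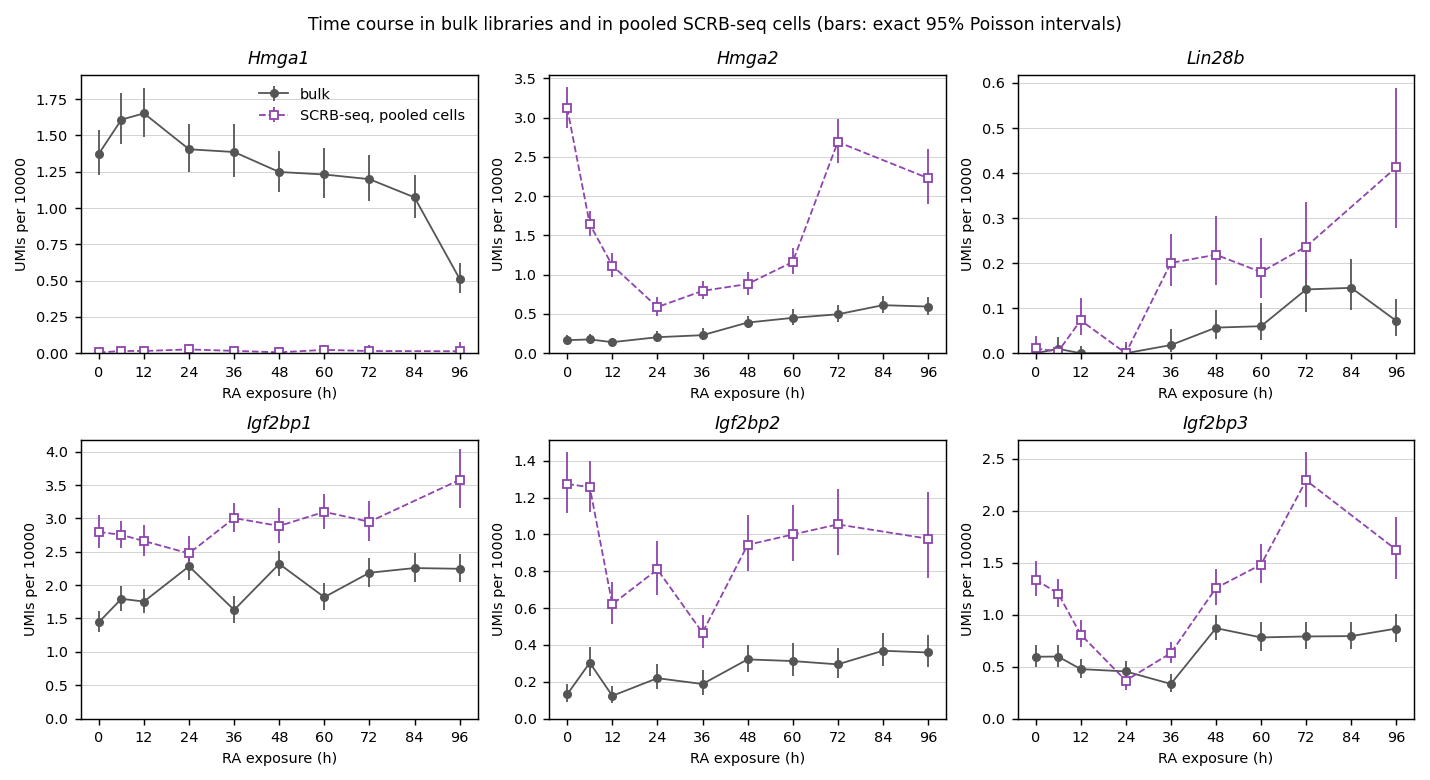
UMIs per 10000 (y axis, linear) against hours of RA (x axis) in bulk libraries (grey, filled; the 0 h point is the first mESC library) and pooled SCRB-seq cells (purple, open), with exact 95% Poisson intervals. Hmga2 in SCRB-seq goes from 3.12 to 0.588 and back to 2.69, while Hmga1 lies near 0 on every SCRB-seq plate.

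To look for the sorted pattern in single cells, the cells of 72 and 96 h were split into an upper and a lower set. The cut was the median of XEN minus ectoderm marker UMIs, both per 10000 UMIs of a cell. The split is a cut through a range, with 45 of 235 cells at 72 h and 3 of 137 at 96 h within 5 UMIs per 10000 of the median. At 72 h Lin28b had 0.363 per 10000 UMIs in the lower set, which leaned to ectoderm (0.23 to 0.545), and 0.118 in the upper set, which leaned to XEN (0.0512 to 0.233). At 96 h it had 0.466 (0.255 to 0.782) and 0.375 (0.215 to 0.609), on 14 and 16 UMIs, intervals that overlapped. Hmga2 had 2.56 (2.02 to 3.20) and 1.99 (1.59 to 2.47) at 96 h. The lower set at 96 h itself held 49 XEN marker UMIs per 10000, next to 193 in the upper set. The upper set held 12.9 ectoderm marker UMIs per 10000, next to 28.6 in the lower set. Its 16 Lin28b UMIs were of 426335, whereas the sorted XEN-like libraries held 2 of 1969024 and 1 of 1097157. The split at 96 h thus did not show the near absence of Lin28b seen in sorted XEN-like cells. The reason was not tested.

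SMART-seq2, which reads whole transcripts and reports RPKM, covered 82, 86, 89 and 82 cells in mESCs and at 12, 24 and 48 h. RPKM values, scaled to the median total of mESCs, are per length and can be compared between genes, except for Hmga1, whose absolute level is uncertain. With Hmga1 left aside, Igf2bp1 had the highest mean in mESCs, with 105 scaled RPKM (SD 32.8 between cells). It was followed by Igf2bp3 with 68.5 (SD 29.1), Igf2bp2 with 27.7 (SD 21), Hmga2 with 22.8 (SD 22.8) and Lin28b with 1.92 (SD 10.8). Hmga1 had a mean of 60.4 (SD 47.2), and its place in this order is not known. Depth per cell is unknown for these values.

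Lin28b exceeded 1 scaled RPKM in 4 of 82 mESCs (4.88%, exact binomial interval 1.34% to 12.0%), 10 of 86 cells at 12 h, 9 of 89 at 24 h and 31 of 82 at 48 h (37.8%, 27.3% to 49.2%). Its mean was 1.92, 3.00, 4.05 and 8.72 scaled RPKM. Hmga1 had means of 60.4, 44.7, 38.3 and 37.7 and exceeded 1 in 71 of 82 mESCs (86.6%) and 52 of 82 cells at 48 h (63.4%). Its mean was thus lower at 12 h than in mESCs, whereas bulk held 137 and 154 CPM in mESCs and 165 CPM at 12 h, with overlapping counting intervals. Igf2bp1 exceeded 1 in every cell up to 24 h and in 81 of 82 cells at 48 h, with means of 105, 84.4, 87.6 and 115. Igf2bp3 was lowest at 24 h here too, with means of 68.5, 52.1, 47.2 and 69.3. Hmga2 had means of 22.8, 31.1, 31 and 33.2, with a spread between cells as large as the mean at each time point, and did not have the low point at 24 h that it had in SCRB-seq. Cells of 1 culture are not replicates, so no test was run.

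At 48 h, the 31 cells with Lin28b above 1 had a median Hmga1 of 47.3 scaled RPKM, against 18.8 in the 51 cells without. The medians of Igf2bp1 were 120 and 101, those of Igf2bp2 39.9 and 29.2, of Igf2bp3 77.8 and 58.7 and of Hmga2 22.5 and 18.3. All 5 medians were higher in the cells with Lin28b, as were those of 72.0% of 7312 genes with a median above 0. The cells with Lin28b also had more genes above 1, with a median of 7825 against 6936, whose part was not tested. Lin28b was above 1 in 13 of the 29 cells highest in Cd24a (44.8%, 26.4% to 64.3%) and in 2 of the 10 cells highest in Pdgfra (20.0%, 2.52% to 55.6%). The intervals overlapped, and 3 cells belonged to both classes. In the other 46 cells the share was 34.8%. Hmga1 was above 1 in 21 of 29 and 7 of 10 of these cells and Hmga2 in 25 of 29 and 10 of 10.

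**Figure D5:**
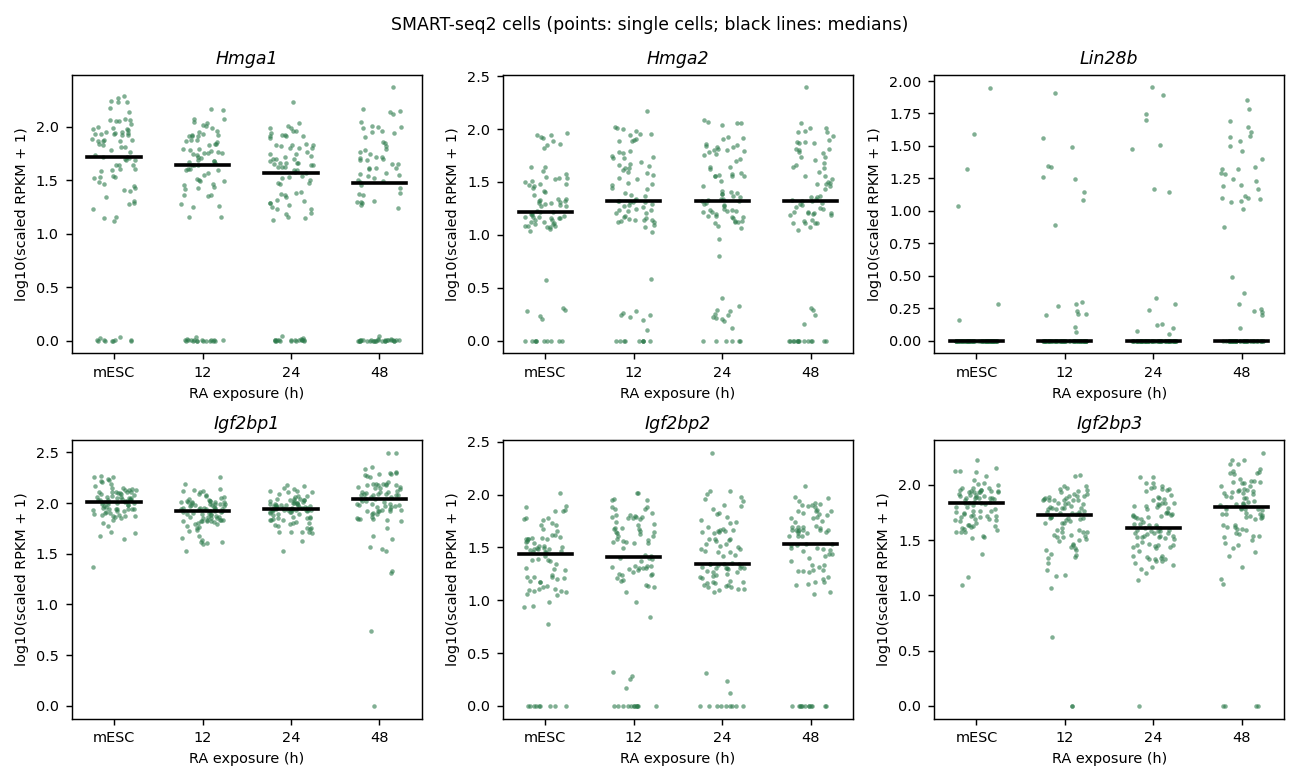
Scaled RPKM per SMART-seq2 cell, as log10(value + 1) (y axis), in mESCs and after 12, 24 and 48 h of RA (x axis). Each point is 1 cell and black lines are medians. For Lin28b the median is 0 throughout, and 31 of 82 cells exceed 1 scaled RPKM at 48 h.

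The rest of the let-7 pathway was counted as a list in the same comparisons. It held genes that make, tail, degrade or use let-7, with Lin28a, which blocks let-7 maturation, and the let-7 target Trim71. Of its 11 genes, 1 was higher and 1 lower in XEN-like than in ectoderm-like cells, beside 6.99% and 5.74% of all genes. Dgcr8, the partner of Drosha in cutting microRNA precursors, stood at 19.3 CPM against 4.76 CPM (log2 difference 2.09, SE 0.46, edgeR adjusted p = 0.0129). Zcchc11, which adds uridines to the let-7 precursor that LIN28A holds, stood at 18.5 CPM against 77.3 CPM (log2 difference -1.94, SE 0.37, edgeR adjusted p = 0.00683). The other 9, Lin28a, Dis3l2, Zcchc6, Drosha, Dicer1, Xpo5, Ago2, Tarbp2 and Trim71, did not pass. Against mESCs, Lin28a and Zcchc11 were called higher in ectoderm-like cells and Lin28a in XEN-like cells, with none called lower. The median log2 difference of the 11 genes was -0.43 between XEN-like and ectoderm-like cells, and -0.06 over all genes.

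Other known let-7 targets were counted as a list of 24, of which 21 were tested and 22 held a match to the seed. Between XEN-like and ectoderm-like cells none was higher and 4 were lower (5.74% of all genes), among them Ccnd1 (4.92 against 116 CPM, log2 difference -4.35, SE 0.43) and Ccnd2 (57.2 against 464 CPM, -2.91, SE 0.39), both D-type cyclins, and the transcription factor Myc (-2.17, SE 0.56). The list median was -0.77, next to -0.06 over all genes. Against mESCs, 6 were higher in ectoderm-like cells (Arid3a, Nr6a1, Plagl2, Ccnd2, Limd2 and Tgfbr1), beside 9.85% of all genes, and none was lower, with a median of 0.84 next to 0.05 over all genes. In XEN-like cells 3 were higher (Ccnd2, Mycn and Tgfbr1) and 2 lower (Ccnd1 and Dna2) than in mESCs, beside 12.3% and 10.5% of all genes, with a median of 0.19 next to -0.06. The comparisons share the same libraries, so the 3 counts are not independent.

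Among 8 RNAs known to be bound by IGF2BP proteins, 5 were tested. Igf2, the growth factor the family is named for, stood at 93.2 CPM in ectoderm-like and 47.9 CPM in XEN-like cells against 2.40 CPM in mESCs, log2 differences of 4.94 (SE 0.46, edgeR adjusted p = 4.41e-05) and 4.08 (SE 0.47, edgeR adjusted p = 0.00017). H19, transcribed next to Igf2, rose in ectoderm-like cells against mESCs (2.40, SE 0.64, edgeR adjusted p = 0.0224). Myc was the one called between XEN-like and ectoderm-like cells, and Actb was called in none of the 3.

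Among the other HMG chromatin proteins, 2 of 9 were lower in XEN-like than in ectoderm-like cells and none was higher, beside 5.74% and 6.99% of all genes, with a list median of -0.62 next to -0.06. These were Hmgb3 (104 against 287 CPM, log2 difference -1.35, SE 0.30, edgeR adjusted p = 0.014) and Hmgn3 (1.98 against 49.8 CPM, -4.36, SE 0.58, edgeR adjusted p = 0.00136). Against mESCs, Hmgb3, Hmgn1 and Hmgn2 were higher in both sorted cell types and Hmgn3 in ectoderm-like cells. None of the 9 held a let-7 seed match.

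In the ectoderm-like culture, 10 of the 18 let-7 targets with 50 UMIs were at least 2-fold lower than in the sorted cells and 1 was higher, beside 14.4% and 13.7% of all genes. Of 7 pathway genes, 4 were lower, Lin28a, Zcchc11, Dicer1 and Trim71, while Zcchc6 was higher. Relative to Gapdh, the split of all genes turned from 784 higher and 824 lower to 2255 and 257, and the list counts were not recomputed on that scale. Trim71, a target of let-7 that is itself typical of early embryonic cells, was at 2 UMIs in this culture against 169 in the sorted cells, a ratio of 0.0212 with a counting interval of 0.00255 to 0.0778. In the XEN-like culture it was at 0 UMIs against 85.

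The genes most like each of the 6 were ranked by Pearson's r of log2(CPM + 1) over the 25 libraries, among 5257 genes with at least 50 UMIs in 2 libraries. Igf2bp1 was closest to Trim71 (r = 0.968), Nme6 (0.928) and Sall4 (0.922). Igf2bp1 and Trim71 were both lowest in the ectoderm-like and XEN-like cultures, at 34.3 and 29 CPM and at 2 and 0 UMIs. Each culture was 1 library, and r without the cultures was not computed. Among the genes most like Hmga1 were Rcc2 (0.923) and Actl6a (0.913). Hmga2 was closest to Arl4a (0.912), Cdh2 (0.899) and Gpc3 (0.892). Lin28b, which itself did not reach 50 UMIs in 2 libraries, was closest to Sfrp2 (0.934), Marcksl1 (0.915) and Fubp1 (0.913), Igf2bp2 to Son (0.874) and Igf2bp3 to Cadm1 (0.878).

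Between pairs of the 6 genes, r was highest for Hmga2 and Lin28b (0.822) and lowest for Hmga1 and Igf2bp2 (-0.117). Igf2bp1 and Igf2bp2 had an r of 0.192 and Hmga1 and Hmga2 one of 0.395. The points are libraries that share cells of 1 line, time points and library totals, so these values describe the libraries and carry no test.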

How the data were processed

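The authors aligned the bulk and SCRB-seq reads with BWA 0.7.4 to mouse RefSeq messages (mm10) and deposited UMI counts per gene and library or well. For SMART-seq2 they deposited RPKM values made with TopHat and Cuffnorm, the versions of which are not given in the sources used here. The 6 genes and the gene lists were chosen with earlier results of these data known. All 6 are reported, the pathway and target lists are counted whole, and members of these lists are named where they passed the test or reached the fold counted.

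Sorted cells and mESCs were compared with edgeR 4.0.16 (R 4.3.3; quasi-likelihood test, TMM factors, filterByExpr, Benjamini-Hochberg adjustment, threshold 0.05) in 1 fit of 6 libraries, tested on simulated data. Its p-values measure the spread between these libraries, which may be technical. The label of the second mESC library does not say whether it was a separate culture, while the methods name biological replicates for all 3 groups. Conditions with 1 library had no test: ratios of CPM carry exact conditional intervals, 3 counts stand for a count of 0, and folds of 2 were counted among genes with at least 50 UMIs on the larger side. The time course used the first mESC library.

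Alternatives were DESeq2 1.42.0, other scalings, no filter on low counts, a replicate block, leaving out each library, and other cell and detection minimums. Some genes and the results that need them are not reported here. The bulk rows of 2 genes held text and were left out, as were SMART-seq2 names listed more than once. Text entries in the SMART-seq2 values, 0.127% to 0.14% of each file, were read as 0. Each SMART-seq2 cell was scaled so that its values summed to the median sum in mESCs. Sequences came from GENCODE M21 and RefSeq tables.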

Additional observations from a re-analysis of the deposited data

How the results depend on the processing

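Of the values for single genes, 308 kept direction and side of the threshold under the alternatives or moved by less than their spread, 14 moved by more, 6 passed the threshold only under an alternative, 4 no longer passed it and 8 changed sign among tested values or folds past 2. When 1 library was left out, Igf2bp2 ranged from -0.67 to 0.018 on the log2 scale between XEN-like and ectoderm-like cells, with the sign turned without XEN-like replicate 2, and Hmga1 from -0.42 to 0.072 between ectoderm-like cells and mESCs, turned without ectoderm-like replicate 2. Hmga1 was at 0.16 there with library totals in place of TMM factors. Between XEN-like cells and mESCs, Hmga2 ranged from -1.68 to 0.19 (turned without mESC replicate 2), Lin28b from -0.11 to 3.85 and Igf2bp2 from -0.21 to 1.32 (both turned without mESC replicate 1, and Igf2bp2 also without XEN-like replicate 1). Ratios of the XEN-like culture that were not past 2-fold also changed sign with the sorted library, in Hmga1 (-0.75 to 0.82), Hmga2 (-0.41 to 1.27) and Igf2bp2 (-0.75 to 0.18). Igf2bp2 in the time course was at -0.0102 with the second mESC library. The count of all genes called between XEN-like and ectoderm-like cells went from 1139 to 709 with DESeq2 and ranged from 296 to 1371 when 1 library was left out, with 1 to 3 of the 6 genes called: 296 without ectoderm-like replicate 1 (1 of 6), 667 without replicate 2, 478 and 556 without XEN-like replicates 1 and 2. Between ectoderm-like cells and mESCs it went from 1711 to 1095 with DESeq2 and ranged from 876 (without ectoderm-like replicate 2; 1029 without replicate 1) to 1750, with 1 to 3 of the 6 called (3 without mESC replicate 2, 2 without XEN-like replicate 1), and library totals and no filter on low counts gave 3 and 2 of the 6. Between XEN-like cells and mESCs it ranged from 1267 (without XEN-like replicate 1) to 1962 around 2042. In the time course 1 of the 6 was past 2-fold with the second mESC library, in place of 3. Relative to Gapdh, 241 genes in place of 158 were past 2-fold between CD24 quartiles (29 higher and 212 lower, in place of 65 and 93) and 2512 in place of 1608 in the ectoderm-like culture (2255 and 257, in place of 784 and 824), where the median of all genes moved to 0.77. The split between higher and lower also moved in the XEN-like culture relative to Gapdh (1170 and 734, from 912 and 1156), with library totals for ectoderm-like cells (1372 and 587, from 881 and 830) and XEN-like cells (1336 and 703, from 1103 and 939) against mESCs, and with DESeq2 between the sorted cells (464 and 245, from 625 and 514). The cause of these shifts was not tested. Where 1 library was left out, the lone library of a group was assumed to vary like the other groups. The sorted libraries share replicate numbers, but with 2 numbers these were not taken to pair samples (correlation of deviations 0.33). With a replicate block, 2620 genes were called in place of 1139.

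Groups of 3 and 2 Lin28b UMIs cannot show a difference, and its ratios carry wide counting intervals. SCRB-seq held too few Hmga1 UMIs for any comparison, and conditions with 1 library have no replicate check.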
